A study of Homo sapiens with 6 samples.

Results

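The genes described here, 10 genes of DNA replication, were followed across HBEC3kt cells, a line of human bronchial epithelial cells immortalised in culture, with and without the S34F mutation of U2AF1. They were taken by name, through their Ensembl IDs: the helicase subunits MCM2, MCM3, MCM4, MCM5, MCM6 and MCM7, the loader CDC6, its brake GMNN, the clamp PCNA and the nuclease FEN1. These are 10 of 11034 Ensembl genes with reads, and their 33 isoforms are part of 63224. The S34F group had 3 libraries and the wild-type (WT) group had 3. In each genotype, replicate 1 came from cell isolate 1 and replicate 2 from isolate 2, in libraries marked B1, and replicate 3 was isolate 2 again in a library marked B2. Both groups are the same line, and how the isolates were made and the mutation introduced was not stated in the sources used here. Replicates 2 and 3 of a genotype therefore share an isolate, and p-values measure the spread between these libraries. U2AF1 is a splicing factor that recognises the AG of 3′ splice sites, S34F is a serine-to-phenylalanine change in it, and the study asked how this mutation alters RNA processing.

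Before a cell copies its DNA, origins are licensed: CDC6, with the origin recognition complex and CDT1, loads the ring of MCM subunits onto DNA in G1. In S phase this ring becomes the core of the replicative helicase, GMNN (geminin) binds CDT1 and stops a second loading, PCNA encircles DNA as the sliding clamp of the polymerases, and FEN1 trims the flaps between Okazaki fragments. Transcription of many of these genes is known to rise at the start of S phase under E2F factors, and airway basal cells, the cells that HBEC3kt resembles, are the dividing cells of the bronchial lining.

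RefSeq promoter sequences (build GRCh38.p14, 250 bases before to 50 bases after a start) were matched by symbol for 8 of the 10 genes, 12 promoters in all. They were searched on both strands for the 4 E2F words TTTCCCGC, TTTCGCGC, TTTGCCGC and TTTGGCGC, for CCAAT and for GGGCGG. Words of opposite strands can share their GCGC, and TTTCCCGC and TTTGCCGC can share bases with a GGGCGG on the other strand. The sequences shown, in lower case with E2F words in capitals, are those of CDC6 and FEN1, which had the lowest adjusted p-values of the 10 genes, of MCM3, and both PCNA windows of the table.
CDC6, chr17:40287629-40287928, plus strand: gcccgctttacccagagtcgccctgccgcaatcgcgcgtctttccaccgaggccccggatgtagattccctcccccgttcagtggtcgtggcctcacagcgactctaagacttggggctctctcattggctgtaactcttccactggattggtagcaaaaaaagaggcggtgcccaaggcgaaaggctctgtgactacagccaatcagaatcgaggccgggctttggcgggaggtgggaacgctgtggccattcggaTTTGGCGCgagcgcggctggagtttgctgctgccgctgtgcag
FEN1, chr11:61792661-61792960, plus strand: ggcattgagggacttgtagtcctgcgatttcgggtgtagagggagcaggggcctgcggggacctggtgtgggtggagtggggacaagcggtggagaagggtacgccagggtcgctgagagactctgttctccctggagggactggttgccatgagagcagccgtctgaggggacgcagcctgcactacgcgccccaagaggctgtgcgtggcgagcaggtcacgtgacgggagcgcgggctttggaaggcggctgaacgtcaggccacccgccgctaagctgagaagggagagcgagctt
MCM3, chr6:52284693-52284992, minus strand: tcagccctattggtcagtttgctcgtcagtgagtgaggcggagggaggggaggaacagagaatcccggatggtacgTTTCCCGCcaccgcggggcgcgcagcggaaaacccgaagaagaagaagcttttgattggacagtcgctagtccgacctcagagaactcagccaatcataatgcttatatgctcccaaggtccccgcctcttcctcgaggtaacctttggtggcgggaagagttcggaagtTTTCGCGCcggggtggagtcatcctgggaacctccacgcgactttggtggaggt
PCNA, upstream start, chr20:5126573-5126872, minus strand: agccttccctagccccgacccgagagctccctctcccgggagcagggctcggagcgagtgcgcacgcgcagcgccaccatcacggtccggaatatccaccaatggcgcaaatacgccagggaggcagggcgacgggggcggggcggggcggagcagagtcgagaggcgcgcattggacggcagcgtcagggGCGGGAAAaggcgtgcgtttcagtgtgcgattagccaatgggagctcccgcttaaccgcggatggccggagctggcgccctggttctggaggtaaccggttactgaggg
PCNA, downstream start, chr20:5119909-5120208, minus strand: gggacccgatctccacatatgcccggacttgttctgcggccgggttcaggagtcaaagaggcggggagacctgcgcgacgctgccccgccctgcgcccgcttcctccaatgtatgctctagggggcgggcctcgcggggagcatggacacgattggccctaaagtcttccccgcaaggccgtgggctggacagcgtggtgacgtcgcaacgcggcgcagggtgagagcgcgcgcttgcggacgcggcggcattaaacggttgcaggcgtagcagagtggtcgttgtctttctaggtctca
The CDC6 window held TTTGGCGC from base 8 after the start. In MCM3, TTTCCCGC began 174 bases and TTTCGCGC 4 bases before the start. The upstream PCNA window held 1 word and the downstream PCNA window and the FEN1 window held none. Of the others, MCM6 held 4 words in 2 overlapping pairs, MCM2 an overlapping pair of 2 words, MCM7 2 words in 1 of its 3 windows and GMNN 1 word in 1 of 2. In all, 7 of the 12 windows, of 7 of the 8 genes, held an E2F word, against 1164 of 35116 promoters of the same length (3.31%). CCAAT stood in 9 of the 12 windows, against 34.6% of all promoters, and GGGCGG in 9 of the 12, against 45.0%. A match of letters is a description of the window and was not tied to binding here.

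Library totals ranged from 451540 to 1014868 assigned reads in S34F and from 1286512 to 1720292 in WT. The 10 genes together received 2312 reads, 1376 in S34F and 936 in WT libraries, so counting error is large for most of them. Levels are given as counts per 1000000 reads (CPM) of each library after TMM scaling, which evens out composition between libraries. The 10 genes summed to 376, 484 and 868 CPM in S34F replicates 1, 2 and 3, against 238, 126 and 231 CPM in WT replicates 1, 2 and 3. The lowest S34F sum therefore lay above the highest WT sum. Counts come from whole cultures, so more cells in S phase and more RNA per cell cannot be told apart. The B2 libraries stood apart from the B1 libraries of both genotypes: reads at loci without a gene ID made up 17.5% in S34F and 19.0% in WT of the B2 libraries, against 8.22% to 9.86% in the B1 libraries.

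Of the 10 genes, 9 had enough reads to be tested among 7033 genes and loci, and all 9 had a positive fold change. FEN1, CDC6, MCM3, MCM5, PCNA and MCM4 were called higher in S34F, 6 of the 9, and 0 were called lower, at an edgeR quasi-likelihood p under 0.05 after Benjamini-Hochberg adjustment. Over all tested genes 1.11% were called higher, 2.13% lower and 3.24% in either direction. The 10 genes were chosen with earlier results of these data known, and the part of that choice in their share was not tested. The filter dropped MCM2. CDC6 passed it through its S34F libraries alone. MCM4 also met it through its S34F libraries, as only replicate 3 of its WT libraries reached the level asked. The part of the filter in the share called was not tested. The median log2 fold change of the 9 genes was 1.68, against 0.02 over all tested genes. In 9 of the 10 genes every S34F library lay above every WT library, and in 8 of the 9 that were tested, where the share over all tested genes was 5.1%. MCM6 was the exception. At an unadjusted p under 0.05 all 9 were higher, against 7.65% of all genes.

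**Figure D1:**
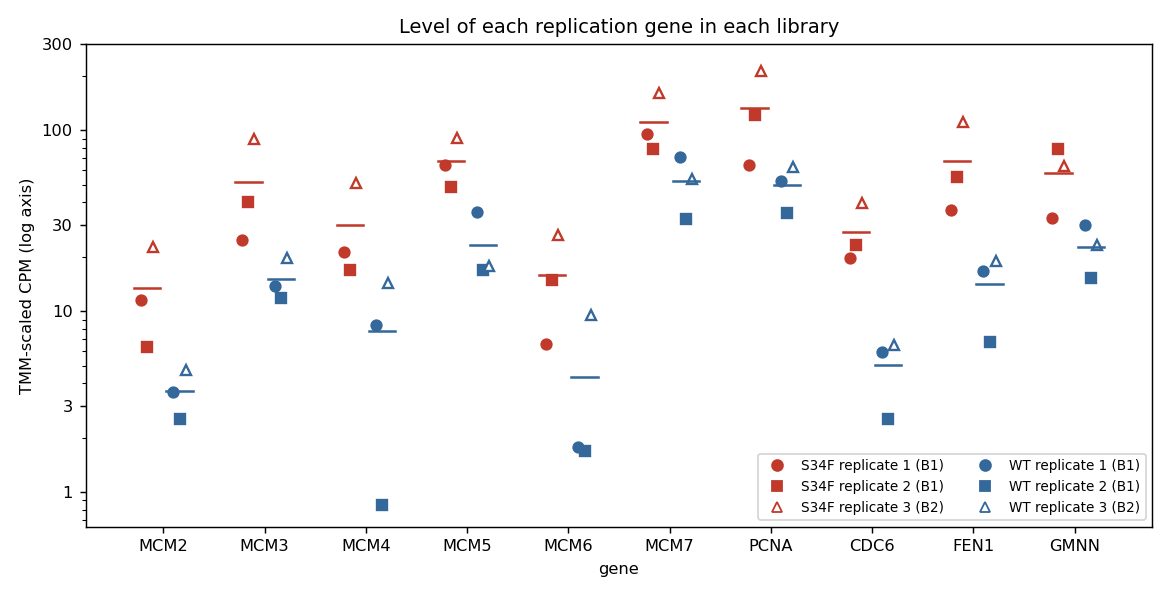
Level of each gene in each library, in TMM-scaled CPM on a log axis, with S34F in red to the left of WT in blue, B1 libraries as filled and the B2 library as open symbols, and bars at group means (n = 3 each). The S34F points lie above the WT points in 9 of the 10 genes; in MCM6 the lowest S34F value, 6.57 CPM, is under the highest WT value, 9.52 CPM.

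The 6 MCM subunits form 1 ring, and their levels summed to 223, 206 and 442 CPM in S34F replicates 1, 2 and 3, against 134, 66.2 and 120 CPM in WT. Both groups had their lowest sum in replicate 2, and they did not overlap. MCM3 (chr6:52128808-52149505 of hg19, minus strand) had 24.6, 40.4 and 89.7 CPM in S34F libraries, against 13.7, 11.9 and 19.6 CPM in WT. All S34F values exceeded the WT values, and the highest was the B2 library. The log2 fold change was 1.68 (SE 0.36, 95% interval 0.92 to 2.44, edgeR adjusted p = 0.0177). MCM4 had 21.4, 17.0 and 51.0 CPM in S34F libraries, against 8.34, 0.848 and 14.3 CPM in WT. Its WT replicate 2 rests on a single read, and the groups did not overlap. Its log2 fold change was 1.87 (SE 0.47, edgeR adjusted p = 0.0430).

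MCM5 (chr22:35796057-35821423, hg19, plus strand) had 64.1, 48.8 and 90.7 CPM in S34F libraries, against 35.2, 17.0 and 17.8 CPM in WT. Here WT replicate 1 was the highest of its group, and all S34F libraries were above it. The log2 fold change was 1.53 (SE 0.37, edgeR adjusted p = 0.0362). MCM7 (chr7:99689824-99698993, hg19, minus strand) had 95.3, 78.6 and 162 CPM in S34F libraries, against 70.9, 32.2 and 53.5 CPM in WT. The ranges did not overlap, though S34F replicate 2 and WT replicate 1 were close. With a log2 fold change of 1.05 (SE 0.33, 95% interval 0.33 to 1.76, edgeR adjusted p = 0.118), MCM7 did not pass the threshold, and its fold change was the smallest of the 9 tested.

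The remaining subunits were the thinnest. MCM6 (chr2:136598013-136633996, hg19, minus strand) had 4, 7 and 28 reads in S34F libraries, against 3, 2 and 16 reads in WT, or 6.57, 14.9 and 26.4 CPM in S34F against 1.79, 1.697 and 9.52 CPM in WT. The B2 library was the highest of each genotype, and the ranges overlapped. Its log2 fold change of 1.88 (SE 0.52) had an edgeR adjusted p of 0.0632. MCM2 (chr3:127317254-127341276, hg19, plus strand) had 7, 3 and 24 reads in S34F libraries, against 6, 3 and 8 in WT, and stayed under the filter of the main fit. It passed the filter only without S34F replicate 2, its lowest S34F library, and was called higher there. Its CPM were 11.5, 6.37 and 22.7 in S34F libraries, against 3.58, 2.55 and 4.76 in WT. These ranges did not overlap, with means of 13.5 ± 8.33 CPM in S34F and 3.63 ± 1.11 CPM in WT (SD, n = 3 each).

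CDC6 (chr17:38444155-38459171, hg19, plus strand), the ATPase that loads the MCM ring, had the largest fold change of the 9 genes tested. It had 19.7, 23.4 and 39.7 CPM in S34F libraries, against 5.96, 2.55 and 6.54 CPM in WT. The lowest S34F library stood well above the highest WT library. The log2 fold change was 2.38 (SE 0.43, 95% interval 1.47 to 3.29, edgeR adjusted p = 0.00513), on 65 reads in S34F and 24 in WT. CDC6 passed the read filter through its S34F libraries alone, as no WT library reached the level asked. It was not tested where 10 reads in every library were asked for. GMNN (chr6:24775160-24786323, hg19, plus strand), which inhibits licensing, had 32.9, 78.6 and 63.3 CPM in S34F libraries, against 29.8, 15.3 and 23.2 CPM in WT. It was the one gene of the 10 whose highest library was S34F replicate 2 and not replicate 3, and replicate 1 of the genotypes nearly met. The log2 fold change of GMNN was 1.32 (SE 0.37, edgeR adjusted p = 0.0718), short of the threshold.

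FEN1 (chr11:61560110-61564704, hg19, plus strand), the flap endonuclease, had 36.1, 55.2 and 111 CPM in S34F libraries, against 16.7, 6.79 and 19.0 CPM in WT. Each S34F value was above all WT values. Its log2 fold change was 2.15 (SE 0.38, 95% interval 1.34 to 2.95), with the lowest adjusted p of the 9 (edgeR adjusted p = 0.00472). The first 165 bases of FEN1 overlap TMEM258 on the other strand, whose reads were 607, 272 and 513 in S34F libraries, against 2136, 2125 and 920 in WT. These TMEM258 reads are not scaled for depth, and every WT library was deeper than every S34F library. Whether the counting used strand is not given in the sources at hand, and the part of this overlap in the FEN1 counts was not tested. PCNA (chr20:5095600-5107272, hg19, minus strand), the sliding clamp, had 64.1, 121 and 213 CPM in S34F libraries, against 52.4, 34.8 and 62.5 CPM in WT. The S34F replicate 1 value was only just above the highest WT value. The log2 fold change of PCNA was 1.32 (SE 0.32, edgeR adjusted p = 0.0365), and the call was lost when the replicate number entered as a block (edgeR adjusted p = 0.0638).

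All 9 tested genes were higher in S34F both within B1 (2 against 2 libraries) and within B2 (1 against 1, with no test of its own), where 35.7% of all tested genes had a fold change above 0 in both and 69.6% had the same sign in both. The median log2 fold change of the 9 genes was 1.31 in B1 and 1.83 in B2, against 0.05 and -0.02 over all tested genes. In 7 of the 9 the B2 value was the larger. For MCM5 the log2 fold change was 1.10 in B1 and 2.34 in B2, for MCM3 it was 1.31 and 2.19, and for CDC6 2.24 and 2.58. MCM6 and MCM4 had the larger value in B1, 2.49 against 1.46 and 1.92 against 1.83. None of these B1/B2 differences passed the edgeR test of the difference itself. Of the 9 genes 0 had even an unadjusted p under 0.05, and over all genes 0% were called, 0.839% had an unadjusted p under 0.05, and limma-voom likewise called 0, with 42 genes at an unadjusted p under 0.05. The interval of the difference was wide, from -0.46 to 2.95 for MCM5, so equal fold changes and a much larger one in B2 cannot be told apart at this depth.

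**Figure D2:**
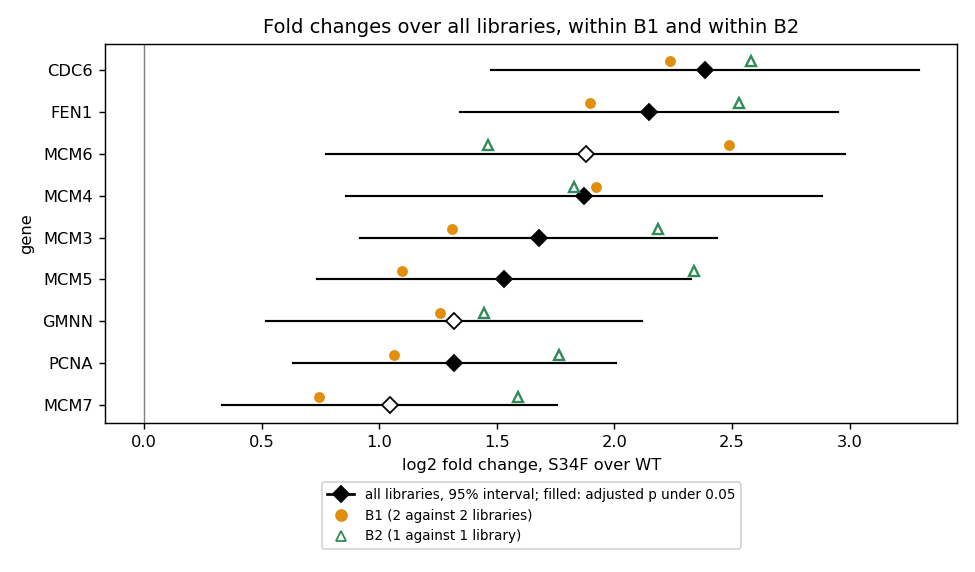
Log2 fold change of S34F over WT for the 9 tested genes, with the 95% interval (diamonds, filled where the adjusted p was under 0.05), and the values within B1 (circles) and within B2 (open triangles). All 18 within-B1 and within-B2 values lie right of 0, and 7 of the 9 genes have the B2 value to the right of the B1 value.

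The 3 same-numbered pairs of libraries were also set side by side, with isolates of a number matched in name only. The summed level of the 10 genes was 1.58-fold higher in S34F than in WT for isolate 1, 3.86-fold for isolate 2 in B1 and 3.76-fold for isolate 2 in B2. So the sum differed more in isolate 2 than in isolate 1 in both libraries of isolate 2. The ratio was larger in both isolate 2 pairs than in the isolate 1 pair for 8 of the 10 genes, the exceptions being MCM2 and MCM6, against 39.4% of the 6905 tested genes with reads in every library. In GMNN, S34F over WT was 1.10 in isolate 1, against 5.15 and 2.73 in isolate 2 in B1 and B2. In PCNA it was 1.22, against 3.48 and 3.40, and in MCM7 1.34, against 2.44 and 3.02. With 1 isolate per genotype and number, a difference between isolates was not tested. All 10 genes were higher in S34F in all 3 pairs, which held for 19.0% of all genes compared.

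The number of calls moved with the libraries used. Without S34F replicate 3, without WT replicate 2 and without WT replicate 3, 0 of the genes passed an edgeR adjusted p of 0.05. Of them 8, 9 and 8 had an unadjusted p under 0.05. Over all genes and loci these fits called 94 of 7774, 68 of 7817 and 67 of 6976. Without WT replicate 1 there were 3 of 9 called, against 110 of 7794 over all. Without S34F replicate 1 there were 9 of 9, against 519 of 8784. Without S34F replicate 2, where MCM2 was tested too and called higher, there were 8 of 10, against 655 of 8595. The main fit called 228 of 7033. In B1 alone 0 of the 8 tested were called (7 at an unadjusted p under 0.05), against 79 of 6330 over all. With both libraries of isolate 2 summed 0 were called (6 unadjusted), against 0 of 8614 over all. The direction did not change: all 144 fold changes of the 9 genes of the main test in 17 alternative fits were above 0, between 0.71 and 2.73 on the log2 scale.

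Long reads also gave the isoforms of each gene. Of the 33 isoforms, 17 carried a transcript ID and these held 81.2% of the reads of the 10 genes. MCM2 and MCM4 had 1 isoform each and MCM7 had 9. At isoform level 13 of the 33 could be tested, all with a log2 fold change above 0, against 50.4% of all isoforms tested, and a median of 1.49. Of these 6 were called higher in S34F and 0 lower (edgeR adjusted p under 0.05), where 1.35% of 13961 isoforms were called higher and 4.26% in either direction. In 6 of the 13 the libraries of the genotypes did not overlap, against 5.74% of all isoforms tested. The called isoforms were the form with most reads of FEN1, CDC6, MCM3, MCM4 and MCM5, and a form of MCM7 that keeps 2 introns.

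The dominant FEN1 isoform, with 2 exons and 94.4% of the reads of the gene, had 33.4, 58.0 and 129 CPM in S34F libraries, against 16.2, 6.22 and 20.8 CPM in WT, scaled at isoform level. The groups were apart, and the log2 fold change was 2.21 (SE 0.40, edgeR adjusted p = 0.00135). The other FEN1 form held 5.58% of the reads. In CDC6 the 12-exon annotated form had 17.5, 13.9 and 43.2 CPM in S34F libraries, against 4.998, 1.78 and 7.71 CPM in WT. No S34F library fell within the WT range, and the log2 fold change was 2.28 (SE 0.46, edgeR adjusted p = 0.00397). This form, too, passed the filter through its S34F libraries alone. A second CDC6 form used a 5′ splice site 141 bases away, in 10 of 65 S34F reads and 4 of 24 WT reads.

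MCM3 was read as 3 forms of 16 or 17 exons and a short one. The form with most reads, of 17 exons, held 45.2% of the reads and had 7.96, 18.6 and 57.9 CPM in S34F libraries, against 3.75, 4.44 and 11.6 CPM in WT. S34F replicate 1 lay within the WT range here, and the log2 fold change was 1.98 (SE 0.46, edgeR adjusted p = 0.0118). A 113-base exon (chr6:52148092-52148204, hg19) was skipped in 4 of 11, 6 of 19 and 24 of 91 reads in S34F replicates 1, 2 and 3, against 10 of 20, 4 of 14 and 9 of 31 reads in WT. A 3′ splice site that changes the exon by 51 bases was used in 23 of 121 S34F reads and 16 of 65 WT reads, and its library shares overlapped. Exon skipping thus took 28.1% of the informative reads in S34F and 35.4% in WT, with library shares that overlapped. The short form, with a different start and a 151-base exon not in the others, held 8 of 129 S34F reads and 5 of 70 WT reads.

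MCM5 had 80.9% of its reads in the annotated 17-exon form, which was called higher (log2 fold change 1.38, SE 0.39, edgeR adjusted p = 0.0423). It had 47.8, 46.4 and 82.9 CPM in S34F libraries, against 33.1, 13.3 and 19.3 CPM in WT, with no overlap. A 3′ splice site of MCM5 that differs by 4 bases was joined to the usual upstream exon in 16 of 139 S34F reads and 6 of 99 WT reads. By library this was 3 of 33, 2 of 22 and 11 of 84 in S34F, against 3 of 56, 2 of 17 and 1 of 26 in WT. The library shares of this junction overlapped. A 5-exon form that skips to the same 3′ splice site was not in these counts, with 4, 1 and 5 reads in S34F libraries, against 1, 0 and 2 in WT. With its reads added the shares of the site did not overlap, on few reads, and this was not tested. Another MCM5 form had 3 exons, began far inside the gene and held 5.99% of the reads. MCM6 had 86.7% of its reads in the 17-exon form and the rest in an 11-exon form that ended early, which had 0, 2 and 4 reads in S34F libraries, against 0, 0 and 2 in WT.

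MCM7 had the most varied reads. Its 15-exon annotated form held 35.3% and had 28.7, 55.7 and 63.6 CPM in S34F libraries, against 30.6, 10.7 and 17.0 CPM in WT. S34F replicate 1 was under WT replicate 1, and the log2 fold change of 1.29 (SE 0.41) had an edgeR adjusted p of 0.0805. The 13-exon form, which keeps introns of 75 and 185 bases (chr7:99696827-99696901 and chr7:99697027-99697211, hg19), was called higher: 11.2, 9.29 and 63.6 CPM in S34F libraries, against 4.37, 3.55 and 17.0 CPM in WT, log2 fold change 1.66 (SE 0.44, edgeR adjusted p = 0.0277). It was highest in the B2 library of both genotypes, and the ranges overlapped. Another MCM7 form, which starts 897 bases further in, had 12.7, 0 and 18.2 CPM in S34F libraries, against 12.5, 3.55 and 13.1 CPM in WT, and its log2 fold change was 0.12 (SE 0.57, edgeR adjusted p = 0.941). A 14-exon form keeping only the 75-base intron held 10.9% of the reads.

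Retention of the MCM7 introns moved with the B1/B2 mark. The 185-base intron was kept in 7 of 56, 4 of 37 and 56 of 171 reads in S34F replicates 1, 2 and 3, against 7 of 115, 4 of 35 and 22 of 88 reads in WT. The B2 library had the highest share in each genotype. For the 75-base intron the counts were 14 of 56, 8 of 37 and 73 of 171 reads in S34F, against 17 of 115, 11 of 35 and 33 of 88 in WT. Pooled over libraries the 75-base intron was kept in 36.0% of S34F and 25.6% of WT reads, but WT replicate 2 stood above S34F replicate 2. The part of the B1/B2 mark in the pooled difference was not tested. Smaller events were an 84-base exon skipped in 11 of 264 S34F reads and 19 of 238 WT reads, an 11-base shift of a 5′ splice site in 28 of 264 S34F and 17 of 238 WT reads, and a 17-base shift of a 3′ splice site in 1 of 266 S34F and 9 of 247 WT reads. In each of these smaller events the library shares of the genotypes overlapped.

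Most PCNA reads fell on forms with either of 2 starts 6600 bases apart. The form with most reads, from the downstream of these starts, held 70.1% of the reads and had 38.2, 97.5 and 179 CPM in S34F libraries, against 36.9, 25.8 and 59.4 CPM in WT. S34F replicate 1 lay within the WT range, and the log2 fold change was 1.27 (SE 0.37, edgeR adjusted p = 0.0516). The form from the upstream start held 18.6% of the reads and had 15.9, 23.2 and 45.4 CPM in S34F libraries, against 12.5, 3.55 and 14.7 CPM in WT. These groups did not overlap, and the log2 fold change was 1.36 (SE 0.44, edgeR adjusted p = 0.0807). Neither form passed the threshold, and both had about the fold change of the gene. Another form of PCNA, with 5 exons and a start 644 bases inside the first form, held 5.05% of the reads. Starts of isoforms (hg19) were not matched to the RefSeq windows (GRCh38.p14).

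GMNN was split between forms with a long and a short first exon, which differ by 132 bases at the 5′ splice site. The short form took 9 of 20, 20 of 37 and 27 of 63 reads in S34F replicates 1, 2 and 3, against 16 of 46, 8 of 15 and 18 of 36 reads in WT. The short form was the more frequent one in replicate 2 of both genotypes, and the shares overlapped. The log2 fold change was 1.25 (SE 0.43, edgeR adjusted p = 0.112) for the long form and 1.49 (SE 0.44, edgeR adjusted p = 0.0518) for the short one. Another GMNN form with a later start held 6.06% of the reads. The test of isoform usage, which asks whether isoforms of a gene differ in fold change, could be run for GMNN, MCM7 and PCNA, and called 0 of them (edgeR Simes adjusted p = 1.00 each, 0 at an unadjusted p under 0.05 and 0 by limma-voom), where 0.615% of 2276 genes were called.

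**Figure D3:**
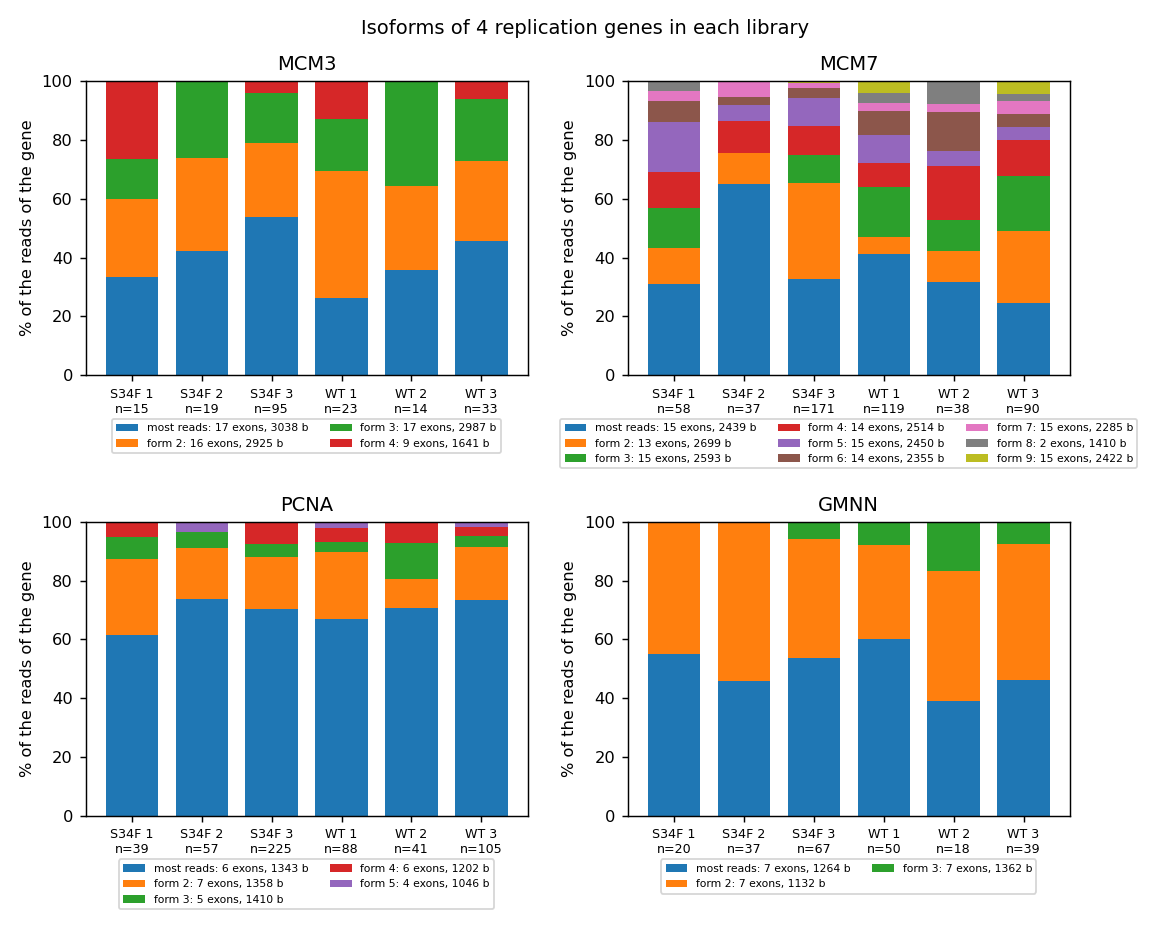
Share of the reads of MCM3, MCM7, PCNA and GMNN in each isoform, in percent, per library, with S34F libraries to the left of WT libraries, the reads of the gene under each bar, and isoforms ordered by reads. The orange MCM7 form that keeps 2 introns takes 32.8% in S34F replicate 3 and 24.4% in WT replicate 3, and 5.88% to 12.1% in the B1 libraries.

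Other genes of the same processes were read from gene lists. Of 23 further origin licensing and firing genes, 17 had reads and 8 were tested, 1 was called higher and 0 lower, with a median log2 fold change of 0.11. The called gene was CDT1, which loads the MCM ring together with CDC6 and is the target of GMNN. CDT1 had 50.9, 19.1 and 22.7 CPM in S34F libraries, against 9.53, 7.64 and 5.35 CPM in WT (log2 fold change 2.04, SE 0.42, edgeR adjusted p = 0.0151). Its groups did not overlap, and it was highest in S34F replicate 1, as none of the 10 genes was. The CDT1 call was lost without S34F replicate 3 and without WT replicate 1, 2 or 3 (edgeR adjusted p = 0.0839, 0.0757, 0.135 and 0.127) and in B1 alone (edgeR adjusted p = 0.113). The median of the list did not keep its sign: it was -0.19 without S34F replicate 2, with 4 of 11 tested genes called, 1 of them lower, -0.06 without WT replicate 2, -0.20 in B1 alone and -0.04 with limma-voom, and 0.85 without S34F replicate 1. GINS2, a subunit of the active helicase, had 119 ± 20.4 CPM in S34F and 61.4 ± 17.7 CPM in WT libraries (SD, n = 3 each) and was not called (edgeR adjusted p = 0.110). ORC4, of the origin recognition complex, had 12.3 ± 6.49 CPM in S34F and 23.5 ± 7.01 CPM in WT (edgeR adjusted p = 0.246). DBF4, the activator of the firing kinase, had a log2 fold change of 0.84 (edgeR adjusted p = 0.540).

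Of 35 replication fork genes, 25 were tested and RPA2, a subunit of the single-strand binding protein, was called higher, at 87.1, 91.3 and 142 CPM in S34F libraries, against 44.7, 25.5 and 52.9 CPM in WT (log2 fold change 1.36, edgeR adjusted p = 0.0193). The RPA2 call was lost without S34F replicate 3, WT replicate 2 or WT replicate 3 (edgeR adjusted p = 0.202, 0.177 and 0.232) and in B1 alone (edgeR adjusted p = 0.202), and 2 genes of the list were called when S34F replicate 1 or 2 was left out. The median log2 fold change of the list was 0.53, and 22 of the 25 were above 0, with a median of 0.26 to 0.61 when each library was left out and 0.28 in B1 alone. The largest in that list short of the threshold was CHAF1A of the histone chaperone CAF-1 (1.38 on the log2 scale, edgeR adjusted p = 0.0933), while PRIM1, a primase subunit, had 0.84 (edgeR adjusted p = 0.161) and RPA1 0.90 (edgeR adjusted p = 0.240). Of 20 nucleotide supply genes 17 were tested and 0 called by edgeR or limma-voom, with 6 and 7 at an unadjusted p under 0.05 and an edgeR median of 0.56. Without S34F replicate 1 there was 1 called, without S34F replicate 2 there were 2, and the median was 0.36 without S34F replicate 3 and 0.33 without WT replicate 3. TK1, thymidine kinase, had 264 ± 62.9 CPM in S34F and 143 ± 78.4 CPM in WT (SD, n = 3 each, edgeR adjusted p = 0.151). DUT, which breaks down dUTP, had a log2 fold change of 0.72 (edgeR adjusted p = 0.231) and GART of purine synthesis one of -0.91 (edgeR adjusted p = 0.212).

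For the 33 genes of G1 to S control, among them the E2F factors and cyclins, 14 were tested and 0 called by edgeR or limma-voom, with 1 and 4 at an unadjusted p under 0.05 and an edgeR median log2 fold change of 0.50. Without S34F replicate 1 and without S34F replicate 2 there was 1 gene called each. The median was 0.16 without S34F replicate 1, 0.29 without S34F replicate 2 and 0.32 without WT replicate 2, and it turned to -0.10 with 10 reads in every library and -0.13 at equal depth. D-type cyclin genes had values of both signs, none called: CCND3 had a log2 fold change of 0.83 and CCND1 of 0.64, against -0.64 for CCND2 (edgeR adjusted p = 0.217, 0.348 and 0.314), and TFDP1, the partner of E2F factors, had 0.78 (edgeR adjusted p = 0.325). Of 26 genes of G2 and mitosis 22 were tested, and PTTG1, the securin, was called higher, at 946, 633 and 602 CPM in S34F libraries, against 344, 287 and 214 CPM in WT (log2 fold change 1.38, edgeR adjusted p = 0.0197). The PTTG1 call was lost without S34F replicate 3 and without WT replicate 1, 2 or 3 (edgeR adjusted p = 0.225, 0.101, 0.190 and 0.279) and in B1 alone (edgeR adjusted p = 0.219). Without S34F replicate 1, 8 genes of the list were called, against 519 of 8784 genes and loci over all. Without S34F replicate 2 there were 3, against 655 of 8595. The main fit called 228 of 7033 over all. NUSAP1 of the mitotic spindle had a log2 fold change of 1.199 (edgeR adjusted p = 0.0689), the tubulin gene TUBA1B 1.15 (edgeR adjusted p = 0.118) and the kinase subunit gene CKS2 0.96 (edgeR adjusted p = 0.0860), and these were not called. The list had 21 of 22 above 0 and a median of 0.65 (1.01 without WT replicate 1 and 0.38 in B1 alone), where 51.6% of all tested genes were above 0. The median of the replication genes, 1.68, was above those of the 5 other cell cycle lists, a comparison for which no test was run. All these lists were chosen with earlier results of these data known, and the part of that choice in the contrast was not tested.

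**Figure D4:**
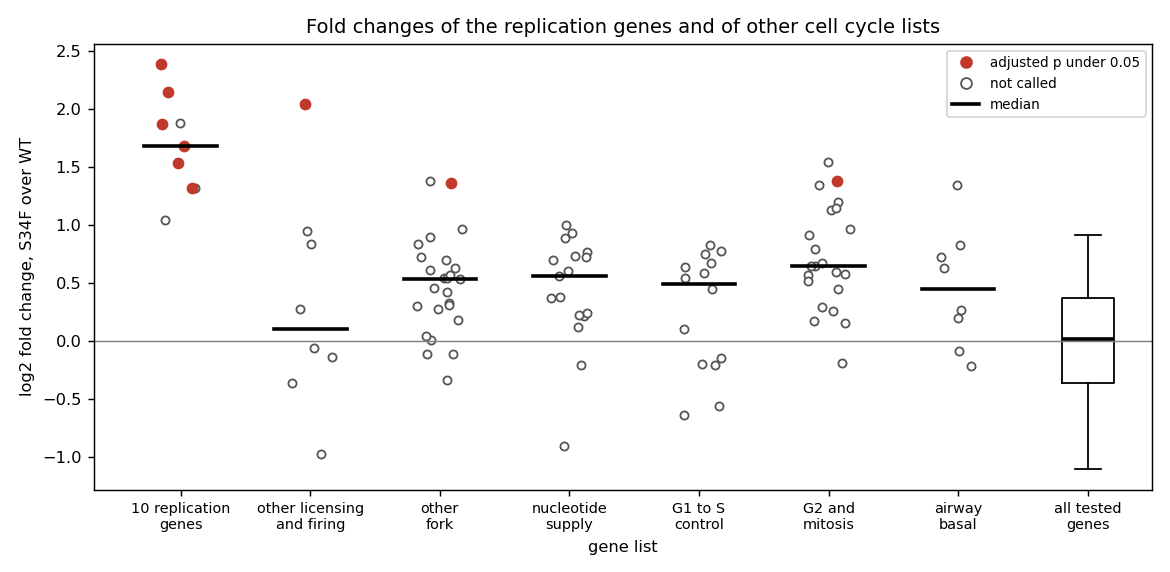
Log2 fold change of S34F over WT for the tested genes of each list, with called genes in red and a bar at the median, and all 7033 tested genes as a box (quartiles, whiskers at the 5th and 95th percentiles). The 9 tested replication genes lie between 1.05 and 2.38 with a median of 1.68, while the medians of the other lists lie between 0.11 and 0.65. Those of the other licensing and firing genes and of the G1 to S genes turned negative in some alternatives. All lists were chosen with earlier results of these data known.

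The label of the cells was read from basal airway markers. KRT14 and KRT5, keratins of basal cells, had 3519 ± 1839 and 1028 ± 357 CPM in S34F libraries, against 2215 ± 1140 and 413 ± 121 CPM in WT (SD, n = 3 each), and TP63, the basal cell factor, had 14.8 to 23.4 CPM in S34F and 15.5 to 23.8 CPM in WT. Of the 9 basal markers 8 had reads, with NGFR without a counted isoform, and 0 of the 8 tested were called by edgeR (KRT5 at a log2 fold change of 1.34, edgeR adjusted p = 0.0512, and 3 at an unadjusted p under 0.05) and 1 each by limma-voom and DESeq2, and by edgeR without S34F replicate 1 or 2. Their sum was 3024 to 7369 CPM in S34F and 2165 to 4273 CPM in WT. Of 17 markers of secretory, ciliated, fibroblast, blood and endothelial cells only DNAH5 and CD14 had reads, summing to 2.12 to 3.29 CPM in S34F and 0.596 to 5.09 CPM in WT, and SCGB1A1, FOXJ1, COL1A1, PTPRC and PECAM1 had no counted isoform, so that no reads were assigned to them.

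Genes outside these lists were ranked by how closely their log2 CPM followed the mean profile of the 10 genes over the 6 libraries, among 3705 genes with at least 10 reads in every library. EIF4A3, a helicase of the exon junction complex, came first (Pearson r = 0.991), with 177, 223 and 298 CPM in S34F libraries, against 140, 102 and 157 CPM in WT. It was followed by a locus without a gene ID (r = 0.981), MRPL18 of the mitochondrial ribosome (r = 0.970), ADH5 (r = 0.969) and the ubiquitin-conjugating enzyme UBE2N (r = 0.968). The 6 points share their libraries, isolates and scaling, and 44 genes reached an r of 0.9 or more, so these values describe the libraries only.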

How the data were processed

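Poly(A) RNA was reverse transcribed by Smart-Seq2 and sequenced on an Oxford Nanopore MinION with 1D chemistry, per the labels' protocols. The deposited table holds the authors' raw read counts of each isoform in each library, on hg19 per the submitters' processing notes. The sources used here do not give the aligner, its version, filters or strand handling, and what B1 and B2 stand for is not stated. The 10 genes and all gene lists were chosen with earlier results of these data known.

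Counts of the 63224 isoforms were summed over 11034 Ensembl genes and 13186 loci without a gene ID. A gene name table paired 10832 Ensembl IDs with a symbol. Exon chains of the deposited isoform models gave the splicing events. Genes and isoforms were tested as whole tables with edgeR 4.0.16 in R 4.3.3 (glmQLFit and glmQLFTest, TMM, filterByExpr). The filter asked for the CPM that 10 reads make at the median library total. It had to be reached in as many libraries as the smaller genotype group held, with 15 reads in total. Genotype and B1/B2 were terms, with Benjamini-Hochberg adjustment held to 0.05, leaving 3 residual degrees of freedom. Standard errors are the fold change over the square root of F, with 95% t intervals. The p-values and intervals also draw on degrees of freedom shared over all genes, with a median prior of 12.1 at gene level. Isoform usage was tested with diffSpliceDGE and Simes p-values, and the B1/B2 difference by the interaction of genotype and B1/B2, with 2 residual degrees of freedom. The tests were tried on simulated data with independently drawn libraries. No shared isolate was simulated, so that trial does not cover replicates 2 and 3 of a genotype coming from the same isolate. Alternatives were DESeq2 1.42.0, limma-voom (limma 3.58.1), RLE scaling, other filters, equal depth (451540 reads), gene IDs only, no B1/B2 term, B1 alone, summed libraries of isolate 2, each library left out, and the replicate number as a block. The deviations of same-numbered libraries from their group means correlated at 0.49, 0.16 and 0.85 for replicates 1, 2 and 3, and the source names give the same isolate numbers in both genotypes.

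All 10 genes are named. The rule also takes, per gene, the 3 isoforms with most reads and any with 10% of its reads or past the threshold, and per other list the 4 genes with the smallest p and any called. A gene that this rule takes is not reported here. It takes the 5 genes most like the 10 by Pearson correlation of log2 CPM (prior count 2). Splicing events and further MCM7 forms were added after their values were seen. Promoters came from RefSeq (GRCh38.p14) and no hg19 position was converted. Tables and plots used Python 3.11.15, pandas 2.3.3, numpy 2.4.6 and matplotlib 3.10.9. Depth was 451540 to 1014868 reads in S34F and 1286512 to 1720292 in WT libraries, so genes near 10 CPM rest on a handful of reads in S34F replicate 2.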

Additional observations from a re-analysis of the deposited data

How the results depend on the processing

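No fold change of the 9 tested replication genes, their called isoforms, CDT1, RPA2 or PTTG1 changed sign. Medians of other lists did: that of the other licensing and firing genes, 0.11, was -0.20 to 0.99, and that of the G1 to S genes, 0.50, was -0.13 to 0.53 over the alternatives, with other numbers of genes tested. Without the B1/B2 term CDT1, RPA2 and PTTG1 were not called. Against 228 genes, 6 of the 10 replication genes, 595 isoforms, 6 isoforms of these genes and 14 genes in the usage test, leaving out the B1/B2 term gave 2, 0, 3, 0 and 0 calls. Asking for 10 reads in every library gave 72, 1, 139, 0 and 3, with fewer genes tested. Only 5 of the 10 were tested there, without FEN1, CDC6 and MCM4, and MCM3 was the one still called. B1 libraries alone gave 79, 0, 184, 0 and 0 with fewer samples. Summing the libraries of isolate 2 gave 0 genes and 0 of the 10 (287 genes and 6 of the 10 at an unadjusted edgeR p under 0.05). Equal depth gave 82 genes and 1 of the 10, PCNA, where 6 of the 10 were tested and CDC6 and MCM4 were not. No filter gave 491 genes, with 6 of the 10, and moved the median log2 fold change of all genes to -0.22. RLE scaling, DESeq2, limma-voom and gene IDs only each called 6 of the 10. Leaving out each library in turn gave 67 to 655 genes, 0 to 9 of the 10, 203 to 1339 isoforms, 0 to 10 isoforms of the 10 genes and 0 to 9 genes in the usage test. The lows came without WT replicate 3 for genes, without WT replicate 2 for isoforms and without S34F replicate 3 or WT replicate 3 for usage. Where no cause is named, the cause was not tested.

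With the replicate number as a block for the pairing of libraries, 187 genes, 5 of the 10 replication genes (PCNA lost, adjusted p = 0.0638), 553 isoforms, 6 isoforms of these genes and 10 genes in the usage test were called, and among the 9 tested genes and the called isoforms the block changed no other call. S34F replicate 1 correlated more with WT replicate 2 (0.54) than with its own number (0.49). Depth limits MCM2, MCM4, MCM6 and CDC6 most, with 1 to 24 reads in single WT libraries.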
